A study of Mus musculus with 4 samples.

Results

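The let-7 family of miRNAs was examined in wild-type (WT) R1 mouse embryonic stem cells (ESCs) and in ESCs without DNA methyltransferases. Its members were taken as the mouse probes whose name starts with let-7, of which there were 8, and the probe for miR-98, giving 9 of the 566 mouse probes of the assay. Mature miRNAs were counted with the NanoString nCounter assay, in which a barcoded probe is read for each miRNA. There were 4 samples, 2 of WT R1 cells and 2 of the triple knockout (TKO) line, in which Dnmt1, Dnmt3a and Dnmt3b are all missing. Per the labels, total RNA was isolated from all 4 samples after 4 days of differentiation, while the growth medium they list for both genotypes contains LIF, a factor that keeps ESCs undifferentiated, on gelatin. The replicates are stated to be biological, and 1 knockout line was compared with WT cells, so what belongs to the genotype and what belongs to that line cannot be told apart. The messenger RNAs of the DNMT genes are not among the probes, so the knockout could not be checked in these samples. For WT and TKO ESCs the paper reports a PCR for the DNMT genes in genomic DNA. The study asked whether DNA methylation around miRNA genes affects the level of the mature miRNA, and the comparison of TKO with WT cells bears on that question for each member.

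The let-7 miRNAs are among the best known regulators of developmental timing. They repress messenger RNAs of growth and stem cell genes, such as those of Lin28, Hmga2 and Myc, and their mature forms are scarce in ESCs and accumulate as cells differentiate. In ESCs the RNA-binding protein LIN28 holds most let-7 precursors back from processing by Drosha and Dicer, and it binds the letters GGAG in the loop of the precursor. The ESC miRNAs of the miR-290 and miR-302 clusters are known to act against let-7 in the choice between self-renewal and differentiation.

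The mature sequences are shown because the members differ by so few bases. They were taken from RefSeq, are written 5′ to 3′, and carry the seed, bases 2 to 8, in capitals. The prefix mmu marks the mouse miRNA and is left out further on.
mmu-let-7a: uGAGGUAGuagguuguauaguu
mmu-let-7b: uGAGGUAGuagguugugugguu
mmu-let-7c: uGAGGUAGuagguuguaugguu
mmu-let-7d: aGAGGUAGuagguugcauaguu
mmu-let-7e: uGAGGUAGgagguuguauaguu
mmu-let-7f: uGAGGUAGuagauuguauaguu
mmu-let-7g: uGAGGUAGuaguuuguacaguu
mmu-let-7i: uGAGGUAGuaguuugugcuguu
mmu-miR-98: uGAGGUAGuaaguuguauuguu

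All 9 members have 22 bases and the same seed, which 11 of the 1679 mature mouse names in the RefSeq table hold. The other names with this seed are let-7k and miR-1961. The members therefore differ only outside the seed. Counted from 1 at the 5′ end, let-7a differs from let-7c by A19G, from let-7e by U9G and from let-7f by G12A, and let-7b differs from let-7c by G17A. Between let-7a and let-7g there are 2 substitutions, G12U and U18C. The members with a neighbour 1 base away are let-7a, let-7b, let-7c, let-7e and let-7f, and the closest relatives of let-7d, let-7g, let-7i and miR-98 are 2 bases away.

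The 9 members come from 12 precursors, since let-7a, let-7c and let-7f each have a pair of genes. A probe for the mature miRNA does not tell such genes apart. In GRCm38.p6, let-7b lies at chr15:85707319-85707403 on the plus strand, 621 bases after let-7c-2 at chr15:85706603-85706697, both within the long noncoding gene Lncppara. The other let-7c gene, let-7c-1, lies at chr16:77599657-77599750, 656 bases from miR-99a. let-7g stands apart from other let-7 genes at chr9:106178840-106178927 on the plus strand, within the protein-coding gene Wdr82. let-7a-1 (chr13:48538179-48538272), let-7f-1 (chr13:48537829-48537917) and let-7d (chr13:48536012-48536114) form a cluster on the minus strand, with gaps of 261 and 1714 bases. let-7a-2 (chr9:41536716-41536811) lies in the noncoding gene Mir100hg, let-7e (chr17:17830352-17830444) in Spaca6, and let-7f-2 (chrX:151912346-151912428) and miR-98 (chrX:151913214-151913321) in Huwe1. let-7i (chr10:122985640-122985724), like let-7a-1, let-7f-1, let-7d and let-7c-1, lies in none of the genes of the RefSeq table.

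The loops between the arms are shown for the precursors of let-7b, let-7c and let-7g, the members described most closely, with GGAG in capitals.
let-7b: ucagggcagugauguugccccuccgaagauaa
let-7c-2: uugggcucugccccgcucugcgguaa
let-7c-1: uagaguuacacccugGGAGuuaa
let-7g: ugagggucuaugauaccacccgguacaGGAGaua

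Searched on the strand of the hairpin, these letters stood in the loop of 9 of the 12 family precursors (75%), and in that of 52 of the 644 mouse hairpins with both arms listed (8.07%). Of the loops shown, those of let-7b and let-7c-2 do not hold them, and among those not shown that of miR-98 does not. Whether the letters go with the differences between genotypes was not tested. In the study's grouping of precursors by the methylation around them, let-7b, let-7c-1, let-7d and let-7e are listed with methylation downstream, let-7f-1 and miR-98 with depletion, and the other precursors, let-7g and let-7c-2 among them, as flat. The presence of the letters is a description of these loops, and the binding of LIN28 was not measured.

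The authors deposited their normalized values on the log2 scale, and levels are given as linear normalized counts. Behind them, between 511661 and 613666 counts were recovered per sample, and the log2 values of replicates correlated at 0.987 in WT and 0.986 in TKO cells across probes. The 33 probes for viral miRNAs, which have no source in mouse cells, averaged 31.5 normalized counts, and a probe was called above background when its mean passed their mean plus 2 SD, 69.2 normalized counts. By this mark 238 of the 566 mouse probes (42.0%) and 7 of the 9 members were above background. Of the 7 ESC markers, the miR-290 cluster, 5 were above background, with summed levels from 316300 to 321787 normalized counts in WT and from 258092 to 282595 in TKO cells. The summed miR-290 cluster was thus read far above background in every sample, while the state of differentiation of the cells was not tested. Of 21 markers of other cell types 9 were above background. The summed level of the 8 mesenchyme and fibroblast markers was 2355 to 2386 in WT and 4167 to 4393 in TKO cells, with 6 of 8 above background. Within it miR-22, miR-21 and miR-152 were higher in both TKO samples, while miR-145 (240 and 201 in WT, 198 and 162 in TKO samples) and miR-199a-3p (95.2 and 122.4 in WT, 72.2 and 61.1 in TKO samples) were lower in both and miR-143 overlapped. The summed level of the 4 blood markers was 844 to 887 in WT and 1214 to 1355 in TKO cells, with only miR-142-3p above background. Only miR-142-3p was higher in both TKO samples (806.9 and 761.5 in WT, 1159 and 1278 in TKO samples). miR-223, below background, was lower in both (43.9 and 44.7 in WT, 30.6 and 25.7 in TKO samples), and miR-451 and miR-144 overlapped. The 4 neuron markers summed to 621 to 720 in WT and 300.2 to 302.4 in TKO cells, with miR-124 and miR-9 above background. Of these 4, only miR-124 was lower in both TKO samples (500 and 457 in WT, 132 and 134 in TKO samples). miR-9 and miR-128 overlapped, and miR-137, below background, was higher in both TKO samples. No marker of muscle or liver was above background. The part of these shifts in the let-7 values was not tested. In bulk RNA, fewer cells with a miRNA and less of it per cell cannot be told apart.

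let-7g, let-7c and let-7b were the members with the largest differences between genotypes. let-7g, the most abundant member in WT cells, was lower in both TKO samples, and the means of let-7b and let-7c were higher in TKO cells. No member passed the test over all probes. The family as a whole, with let-7a unresolved, gave between 0.234% and 0.335% of the mouse signal in each sample. Its summed level overlapped between the genotypes.

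For let-7g, the normalized counts were 645 and 720 in the WT samples and 464.5 and 447 in the TKO samples. Both TKO samples lay below both WT samples. The mean was 683 ± 52.6 (SD, n = 2) in WT and 456 ± 12.4 (SD, n = 2) in TKO cells, which is 0.668 of the WT level. On the log2(normalized count + 1) scale the difference was -0.58 ± 0.15 (SE), with a 95% interval from -0.99 to -0.17. limma gave an unadjusted p of 0.0158, and its Benjamini-Hochberg adjusted p over the 566 probes was 0.115. The call was therefore not made at the threshold of 0.05, while 48 of the 566 probes (8.48%) were called in either direction and 24 (4.24%) were called lower in TKO cells. When limma was refitted on the 238 probes above background, which changes both the prior variance and the number of tests, the adjusted p of let-7g was 0.0220. It was 0.0137 with a prior variance that follows the level and 0.0134 with voom on the recovered counts. In rank among the 566 mouse probes, let-7g went from 60 in WT to 75 in TKO cells.

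let-7c was the second most abundant member in WT cells. It had 306 and 371 normalized counts in the WT samples and 598 and 343 in the TKO samples. TKO replicate 1 was the highest of the 4 samples, and TKO replicate 2 lay between the WT samples. The TKO samples differed by more than counting error, since their 95% Poisson intervals ran from 551 to 648 and from 306 to 383 normalized counts. The mean was 339 ± 45.9 (SD, n = 2) in WT and 470 ± 180 (SD, n = 2) in TKO cells, a ratio of 1.39, and the log2 difference was 0.43 ± 0.32 (SE), with a limma adjusted p of 0.497. Without TKO replicate 1 the log2 difference was 0.026, and without TKO replicate 2 it was 0.83, so the size of the difference rested on the first of these samples.

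let-7b, which is 1 base from let-7c in its mature form, had 78.1 and 47.6 normalized counts in WT and 88.0 and 85.8 in the TKO samples. Both TKO samples lay above both WT samples, and only WT replicate 2 lay below the background mark. The mean was 62.9 ± 21.6 (SD, n = 2) in WT and 86.9 ± 1.56 (SD, n = 2) in TKO cells, a ratio of 1.38. The log2 difference was 0.50 ± 0.28 (SE), with a 95% interval from -0.23 to 1.24 and a limma adjusted p of 0.347. The spread here lay within the WT pair, with a log2 difference of 0.85 when WT replicate 1 was left out and of 0.15 when WT replicate 2 was. let-7b was near background, and after subtraction of the mean of the viral probes its log2 difference was 0.99.

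**Figure D1:**
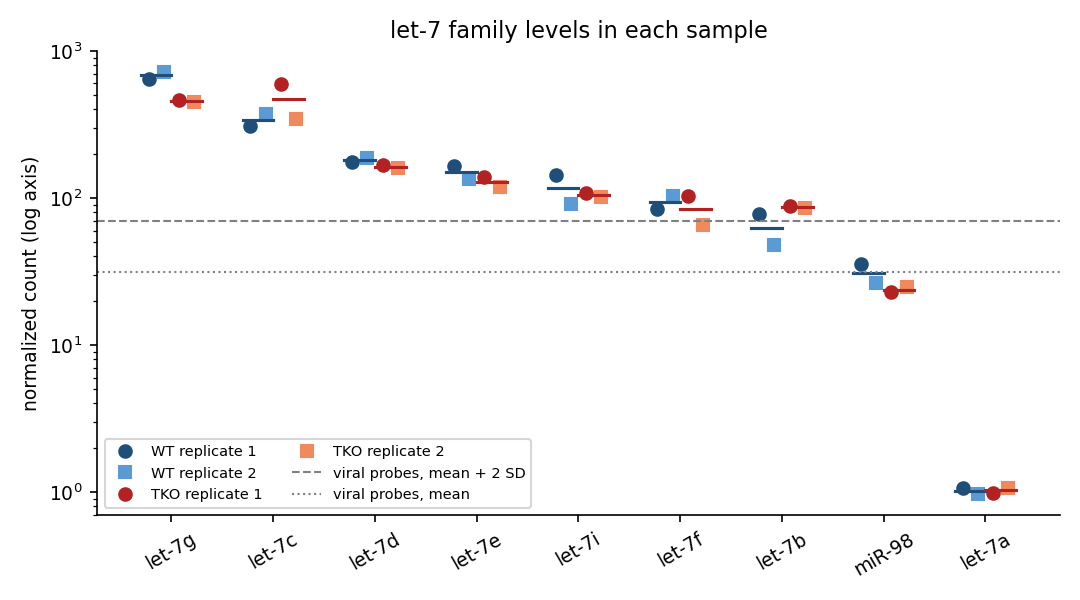
Normalized count (log axis) of each family member in the 2 WT and 2 TKO samples, with horizontal bars at the genotype means, a dashed line at the background mark (69.2) and a dotted line at the viral probe mean (31.5). let-7g is lower in both TKO samples, let-7c is spread from 343 to 598 within TKO cells, and let-7a lies near 1 in all 4 samples.

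The other members above background differed less. let-7d, encoded in a cluster with let-7a-1 and let-7f-1, had 177 and 186 normalized counts in WT and 168 and 159 in the TKO samples. The replicates were close to each other, and both TKO samples lay below both WT samples as scaled by the authors. The log2 difference was -0.15 ± 0.15 (SE), with a limma adjusted p of 0.619. With the samples scaled by their sum it was -0.014.

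let-7e had 165 and 135 normalized counts in WT and 139 and 118 in the TKO samples, and let-7i had 142.3 and 91.3 in WT and 108 and 102 in the TKO samples. In both members the genotypes overlapped. Their log2 differences were -0.22 ± 0.19 (SE) and -0.12 ± 0.26 (SE), with limma adjusted p-values of 0.569 and 0.826. For let-7f the values were 84.5 and 103 in WT and 104 and 65.4 in the TKO samples. The TKO samples of let-7f enclosed both WT samples, and the log2 difference was -0.18 ± 0.28 (SE), with a limma adjusted p of 0.764. The sign of the difference of let-7i turned under 2 other scalings of the samples, by their sum (0.012) and by their median (0.00028), so no direction is given for it.

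miR-98 and let-7a were below background. miR-98, made from a precursor 785 bases from let-7f-2, had 35.3 and 26.2 normalized counts in WT and 22.7 and 24.7 in the TKO samples. Its mean over the 4 samples was exceeded by 17 of the 33 viral probes. Both TKO samples lay below both WT samples, but at this level the difference of -0.35 ± 0.20 (SE, log2; limma adjusted p of 0.371) could not be told from background. let-7a had 1.07 and 0.97 normalized counts in WT and 0.99 and 1.07 in the TKO samples, which is a recovered count of 1 in each of the 4 samples.

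The reading of let-7a was lower than that of every viral probe, whose lowest recovered count was 8 or 9 in each sample. miR-155 was the only other mouse probe at a count of 1 in all 4 samples. No probe had a count of 0, and whether 1 is a floor set in the processing is not given in the sources used here. A change of let-7a between the genotypes could therefore not be resolved. Its cluster neighbours let-7d and let-7f were read at 159 to 186 and at 65.4 to 104 normalized counts, and its 3 relatives at a distance of 1 base, let-7c, let-7e and let-7f, were all above background.

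Across the family 0 of 9 members were called by limma after adjustment over all probes, and 1, let-7g, had an unadjusted p under 0.05, against 23.5% of the 566 probes with such a p. As scaled by the authors, both TKO values lay below both WT values in 3 members, let-7d, let-7g and miR-98, against 36.0% of all mouse probes. They lay above in let-7b only, against 17.3% of all mouse probes. Fitted differences were below 0 for 6 of 9 members, against 61.7% of all mouse probes, and above 0 for let-7b and let-7c, leaving let-7a without a resolvable difference. The 6 include let-7i, whose sign turned with sum and median scaling, which left 5, and let-7f, which turned without TKO replicate 2. The median log2 difference was -0.15 over the 9 members and -0.12 over all 566 mouse probes. The shares of members called, with an unadjusted p under 0.05, or with groups that do not overlap were each at or below that of all mouse probes.

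**Figure D2:**
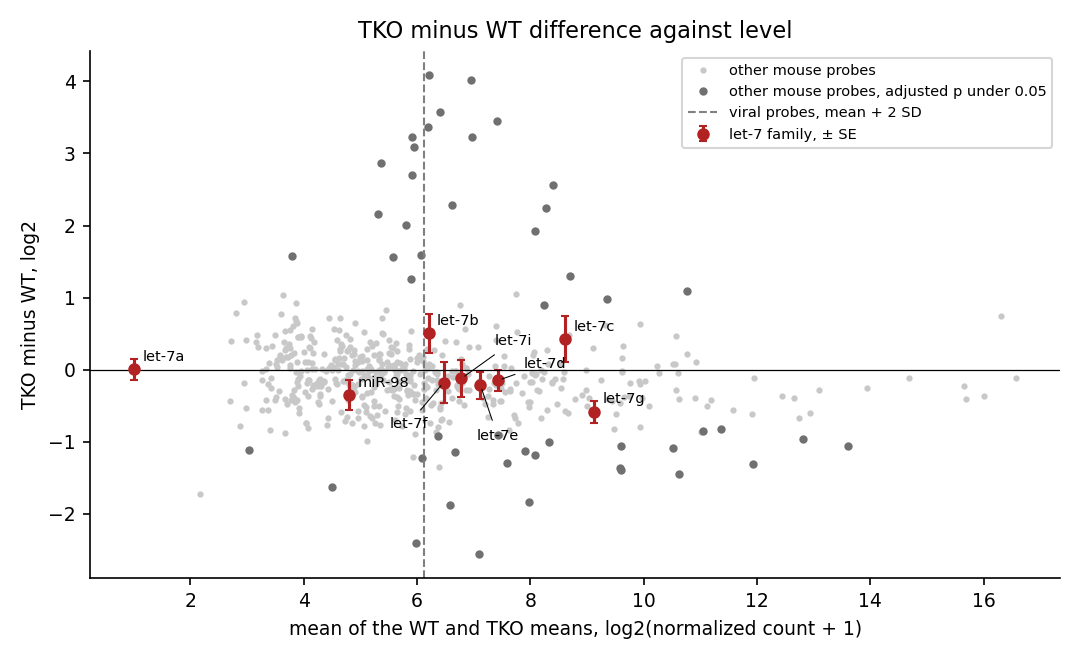
Difference of TKO minus WT on the log2(normalized count + 1) scale (vertical axis) against the mean level on the same scale (horizontal axis) for the 566 mouse probes. Family members are red with bars of ± 1 SE, dark grey points are the 48 probes with a limma adjusted p under 0.05, and the dashed line is the background mark. let-7g lies at -0.58, let-7b at 0.50 and let-7c at 0.43, and no member is among the called probes.

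The order of the levels was described within each genotype. A probe's own efficiency enters its level, so an order among members is one of normalized counts and not of molecules. In WT cells the order of the means ran let-7g, let-7c, let-7d, let-7e, let-7i, let-7f, let-7b, miR-98 and let-7a. Neighbours whose replicate ranges overlapped were let-7e with let-7i and let-7i with let-7f, and the other neighbours were separate. let-7g was 2.02 times let-7c in the WT means. In TKO cells let-7c (470) came before let-7g (456), with overlapping ranges, and then let-7d, let-7e, let-7i, let-7b, let-7f, miR-98 and let-7a followed. let-7b and let-7f overlapped there as well. From let-7d to let-7i the order was the same in both genotypes.

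The ratios within a sample do not depend on how the samples were scaled. They were chosen with the differences known and are described without a test. The ratio of let-7g to let-7c was 2.11 and 1.94 in the WT samples and 0.777 and 1.30 in the TKO samples. let-7g thus exceeded let-7c in both WT samples and in TKO replicate 2, and was below it in TKO replicate 1. The ratio of let-7g to let-7b was 8.26 and 15.1 in WT and 5.28 and 5.21 in the TKO samples. Both ratios were lower in both TKO samples, by 1.01 and 1.09 on the log2 scale. Without TKO replicate 1 the first of these differences was -0.63, and without TKO replicate 2 it was -1.38. let-7b lay below the background mark in WT replicate 2, and after subtraction of the mean of the viral probes the ratios of let-7g to let-7b were 14.7 and 36.6 in WT and 7.30 and 7.78 in the TKO samples. The ratio of let-7c to let-7b, at 3.92 and 7.80 in WT and 6.80 and 4.00 in the TKO samples, overlapped.

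The summed family reached 1634 and 1680 normalized counts in WT and 1693 and 1345 in the TKO samples. TKO replicate 1 was the highest and TKO replicate 2 the lowest of the 4 samples. The means were 1657 ± 32.7 (SD, n = 2) and 1519 ± 246 (SD, n = 2), with a log2 difference of -0.13. It was -0.30 without TKO replicate 1, 0.031 without TKO replicate 2 and -0.00037 with sum scaling, so no direction is given for the total. The family made up 0.278% and 0.282% of the mouse signal in WT and 0.335% and 0.234% in the TKO samples. let-7a, whose level could not be resolved, enters the total and these shares at a count of 1. Within the family, let-7g gave 39.5% and 42.8% of the total in WT and 27.4% and 33.2% in the TKO samples. The share of let-7c was 18.7% and 22.1% in WT and 35.3% and 25.5% in the TKO samples, and that of let-7b was 4.78% and 2.83% in WT and 5.20% and 6.37% in the TKO samples. The makeup of the total thus had less let-7g and more let-7c and let-7b in both TKO samples. Shares of the same total are not independent, since a lower share of let-7g raises those of the others. The level of let-7c itself in TKO replicate 2 (343) lay between the WT samples (306 and 371).

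**Figure D3:**
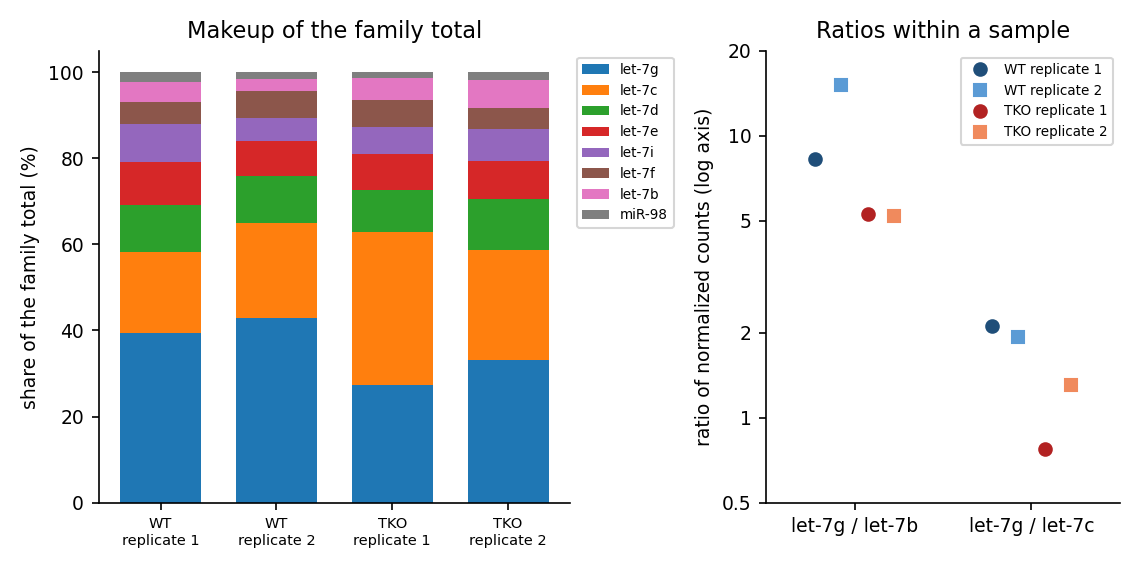
Left, share of each member in the family total (%) for each sample, with let-7a left out of the drawing because it is at 1 count. Right, ratios of the normalized counts of let-7g to let-7b and of let-7g to let-7c in each sample (log axis), where both TKO samples lie below both WT samples in each ratio.

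The miRNAs encoded near let-7 genes were compared next. Of 7 such probes 4 were above background, and 1 was called, against 8.48% of all mouse probes. Their median log2 difference was -0.37, against -0.12 over all mouse probes. This median is the value of miR-125b-3p, a probe below background. The called probe was miR-125a-3p, from the precursor 367 bases from let-7e. It had 117 and 111 normalized counts in WT and 63.3 and 55.7 in the TKO samples, a log2 difference of -0.93 ± 0.16 (SE) with a limma adjusted p of 0.0403. Both TKO values lay below the background mark of 69.2, so the probe passed it only through WT cells. The other arm of this precursor, miR-125a-5p, had 974.9 and 869 in WT and 827 and 794 in the TKO samples, a log2 difference of -0.18.

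Further partners did not pass the test. miR-99b, 94 bases from let-7e, had 178 and 195 normalized counts in WT and 155 and 123 in the TKO samples, with a limma adjusted p of 0.258. miR-125b-5p can come from precursors 45114 bases from let-7a-2 and 46522 bases from let-7c-1. It had 79.2 and 89.4 in WT and 40.5 and 49.3 in the TKO samples. Its mean over the 4 samples, 64.6, lay below the background mark of 69.2, as did both TKO values. The log2 difference of miR-125b-5p was -0.90, with a limma adjusted p of 0.0610. miR-99a, beside let-7c-1, had 89.9 and 57.3 in WT and 54.4 and 97.6 in the TKO samples, which overlapped. miR-100, 5211 bases from let-7a-2, was below background at 5.35 and 8.74 in WT and 8.89 and 9.65 in the TKO samples. miR-125b-3p was below background too, at 12.9 to 19.4. The log2 difference was 0.43 ± 0.32 (SE) in let-7c and 0.02 ± 0.38 (SE) in miR-99a, so they are not shown to differ. The let-7c probe also reads let-7c-2, which lies on another chromosome than miR-99a.

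Of the 8 ESC miRNAs of the miR-290 and miR-302 clusters known to oppose let-7, 5 were above background, and 3 were called higher in TKO cells. Over all 566 mouse probes 4.24% were called higher. Both TKO values lay below both WT values in 3 of the 8, miR-291a-3p, miR-294 and miR-295, against 36.0% of all mouse probes. None of these 3 was called by limma. Both TKO values lay above both WT values in 4 of the 8, all of the miR-302 cluster, against 17.3% of all mouse probes. Of the called probes, miR-302d was above background in every sample, with 147.68 and 136.95 normalized counts in WT and 618 and 745 in the TKO samples, a log2 difference of 2.25. miR-302a passed the background mark only in TKO cells, with 47.1 and 53.4 in WT and 503 and 625 in the TKO samples. miR-302c was below the mark in all 4 samples, at 6.42 and 7.77 in WT and 21.7 and 24.7 in the TKO samples, and 25 of the 33 viral probes exceeded its mean, so no size is given for its difference. miR-294, the miR-290 cluster member with the let-7 opposing seed and the highest level, had a log2 difference of -0.11 and miR-295 one of -0.37 (limma adjusted p of 0.232). miR-294 exceeded the summed family 62.5 and 59.1 times in the WT samples and 51.9 and 73.8 times in the TKO samples, and these ranges overlapped.

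Among 231 mouse probes above background outside the family, those whose 4 centred log2 values lay nearest to the summed family were miR-495, miR-540-3p and miR-2132, at Euclidean distances of 0.087, 0.10 and 0.10 against a median of 0.49. miR-495 had 978 and 1077 normalized counts in WT and 1008 and 838 in the TKO samples, with TKO replicate 2 the lowest as in the summed family. With 4 samples, this likeness is a description only.

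**Figure D4:**
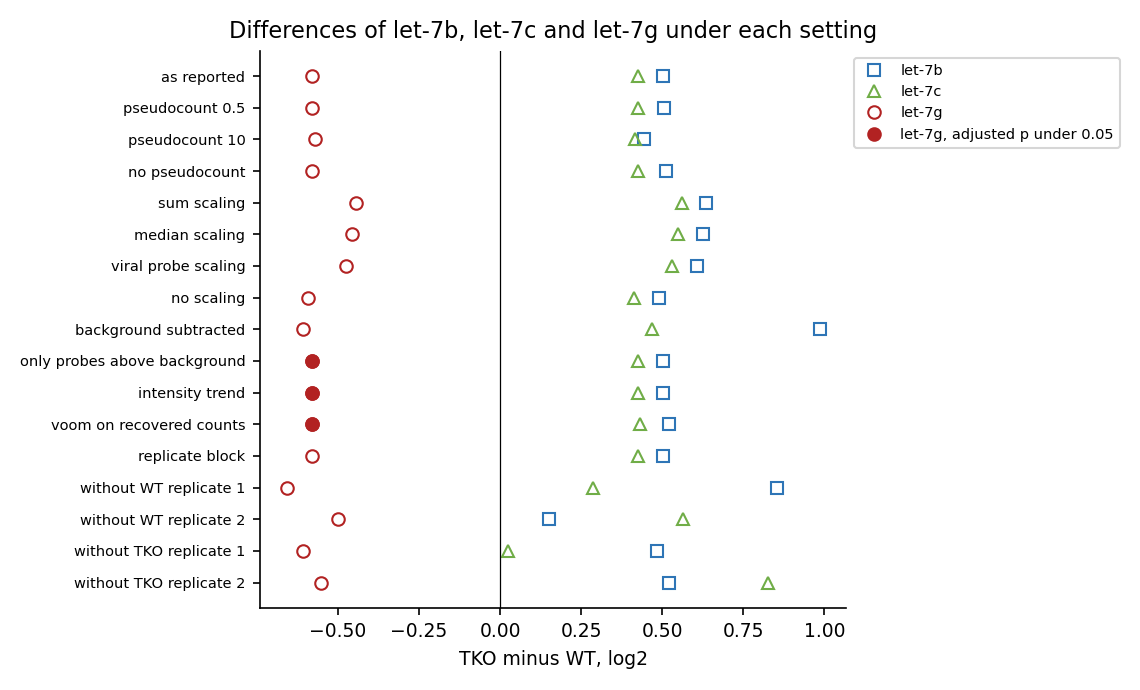
Difference of TKO minus WT (log2, horizontal axis) of let-7b, let-7c and let-7g as reported and under 16 other settings of the processing (vertical axis), with let-7g filled where its limma adjusted p was under 0.05. let-7g stays below 0 and let-7b and let-7c above 0 throughout, and let-7c reaches 0.026 without TKO replicate 1.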

How the data were processed

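NanoString nCounter levels of mature miRNAs were available for 2 WT and 2 TKO samples, grouped by their labels. Normalization by the authors used nSolver, and the deposited values are on the log2 scale. The version, background setting and scaling probes are not given in the sources used here. The values were turned back to linear normalized counts, from which whole counts were recovered within a tolerance of 0.05. Intervals on these cover counting error only.

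A pseudocount of 1 was added, log2 was taken, and TKO was compared with WT by limma (lmFit and eBayes) over all 566 mouse probes, adjusted after Benjamini-Hochberg and called at 0.05. A fold change on this scale understates the change of low probes. The script was tested on simulated data. A two-sided permutation test of 2 against 2 samples cannot give a p below 0.333 and was not used. The members, the lists of other miRNAs and the markers were chosen with earlier results of these data known. The text names every member, the miRNAs encoded near let-7 genes, the 3 probes nearest to the summed family, and miR-294 and miR-295. miR-155, miR-291a-3p, the called members of the miR-302 cluster and the single markers of other cell types were named after their values were seen. Alternatives covered the pseudocount, scaling, background, prior variance, voom, a replicate block and each sample left out. Those for the count over all probes were chosen after seeing the data.

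Mature sequences, hairpins and positions came from RefSeq (GRCm38.p6). The fits ran in R 4.3.3 with limma 3.58.1. Levels and sequences were handled in Python 3.11.15 with pandas 2.3.3 and numpy 2.4.6, intervals came from scipy 1.17.1, and figures were drawn with matplotlib 3.10.9.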

Additional observations from a re-analysis of the deposited data

How the results depend on the processing

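The log2 difference of let-7g was negative under 16 of 16 alternatives, from -0.66 to -0.45, with limma adjusted p-values from 0.0134 to 0.413. The count of members called was 0 as reported and 1, let-7g, when only probes above background were fitted, with the intensity trend and with voom. That of all probes called was 48 as reported, 31 after background subtraction, 74 over probes above background, 84 with the trend, 85 with voom, 30 with the replicate block, and 0 to 14 when single samples were left out. The 24 lower and 24 higher calls became 17 and 27 with sum scaling and 18 and 27 with median scaling. Differences of let-7b (0.15 to 0.99) and let-7c (0.026 to 0.83) kept their sign under all 16 alternatives, and neither was called. let-7f turned to 0.15 without TKO replicate 2, and was -0.51 at the other end of the fits that left out a sample. let-7i turned to 0.012 with sum scaling, to 0.00028 with median scaling and to 0.20 without WT replicate 1 (lowest -0.44). Sum scaling moved the median of all probes from -0.12 to 0.0089 and median scaling moved it to -0.00054. The log2 difference in the ratio of let-7g to let-7b was -1.62 after background subtraction, from -0.65 to -1.53 when samples were left out. That of let-7g to let-7c ran from -0.63 to -1.38 and that of the family total from -0.30 to 0.031 when samples were left out. The cause of these changes was not tested. Replicate numbers are not said to mark a shared culture, and deviations of same-numbered samples correlated at -0.094. With the replicate block 0 members were called, and the limma adjusted p of let-7g was 0.256. miR-98 lies below the background mark and let-7b near it, and let-7a is at a count of 1, so their differences are the least resolved.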
